A study of Mus musculus with 6 samples.

Results

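The genes described here encode RNA helicases of the DEAD-box (DDX) and DEAH-box (DHX) families, the hnRNP and SR splicing proteins, and the translation factors whose names begin with EIF2, EIF3, EIF4 or EIF5. They were chosen by gene symbol alone: names beginning with HNRNP, with SRSF and a number, with DDX or DHX and a number, or with EIF2 to EIF5, leaving out names that end in Y. The rule found 128 of the 13702 genes listed, and 93 of them had at least 20 counts over the 6 libraries and were compared between genotypes. The other 35 had fewer counts and are given by their counts only. DDX26B is an older symbol for a relative of an Integrator complex subunit, which is not a helicase, and it stays in the set only because of its name.

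The libraries were made from pancreatic islets of 12-week-old mice. The 3 KO libraries are labelled β-PCKO, mice that lack pyruvate carboxylase in β-cells, and the 3 WT libraries come from wild-type littermates. The labels name neither the Cre driver nor any allele. The libraries are numbered, but nothing says whether they are separate animals, and a p-value here measures only the spread between libraries, which may be technical.

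DEAD-box and DEAH-box proteins use ATP to unwind or rearrange RNA in splicing, ribosome assembly, translation and decay. SR proteins bind exons and mostly favour their inclusion, while hnRNPs coat the transcript and often oppose it. The eIF2 complex brings the initiator tRNA to the ribosome and is the point at which stress kinases slow translation, eIF3 scaffolds the small subunit, eIF4 factors select the capped mRNA, and eIF5 acts on start codon choice and subunit joining. In β-cells the eIF2 step is known for its role in the response to the heavy load of insulin synthesis.

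Several facts of the libraries bear on every value below. Total counts were 225561, 225074 and 224898 in KO replicates 1 to 3, against 35906, 377876 and 135441 in WT replicates 1 to 3. The identifiers are human although the labels give mouse and mm10, and the sources used here do not give how reads reached human names. The targeted gene had 0 counts in each KO library, against 0, 4 and 0 in the WT libraries, so it did not check the labels. The hormone genes INS, GCG, SST and IAPP have no value under these names. Of 15 other islet endocrine markers, 11 were listed, and they held 0.446% to 0.495% of counts in KO libraries, against 0.627%, 0.027% and 0.106% in WT replicates 1 to 3. Squamous epithelium markers, all 14 of 14 listed, held 0.0262% to 0.0337% in KO libraries and 16.9% in WT replicate 2, with 0.0696% and 0.104% in WT replicates 1 and 3. Markers of fibrous connective tissue held 0.149% to 0.159% in KO libraries, against 0.869% in WT replicate 3 and 0.231% and 0.0585% in WT replicates 1 and 2. Of 14 acinar markers only 2 were listed, CTRC and PRSS1, with 0 counts in every KO library and 1 each in WT replicate 2, and the other 12 have no value. The WT libraries therefore stand apart from one another, and the part of this in each result below was not tested. Fewer cells of a type and less RNA per cell cannot be told apart in bulk tissue.

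The set took a large share of the counts. Its 128 genes held 11.6%, 11.5% and 11.4% of counts in KO replicates 1 to 3, against 13.95% (95% exact interval 13.6 to 14.3), 2.51% (2.46 to 2.56) and 5.31% (5.19 to 5.43) in WT replicates 1 to 3. The KO libraries lie close together, between WT replicate 1 on one side and WT replicates 2 and 3 on the other. The mean share was 11.5 ± 0.078% in KO libraries and 7.26 ± 5.96% in WT libraries (SD, n = 3 each), a difference of 4.22 points that is smaller than the WT spread. The 12 genes with most counts carried most of this share, 9.34 ± 0.0262% in KO libraries and 5.49 ± 5.43% in WT libraries. All other members together held 2.14 ± 0.068% in KO libraries and 1.77 ± 0.553% in WT libraries. The eIF4 group and the hnRNPs were the 2 largest classes, with 3.56 ± 0.0482% and 2.35 ± 0.0282% in KO libraries against 2.24 ± 2.18% and 1.94 ± 1.46% in WT libraries.

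**Figure D1:**
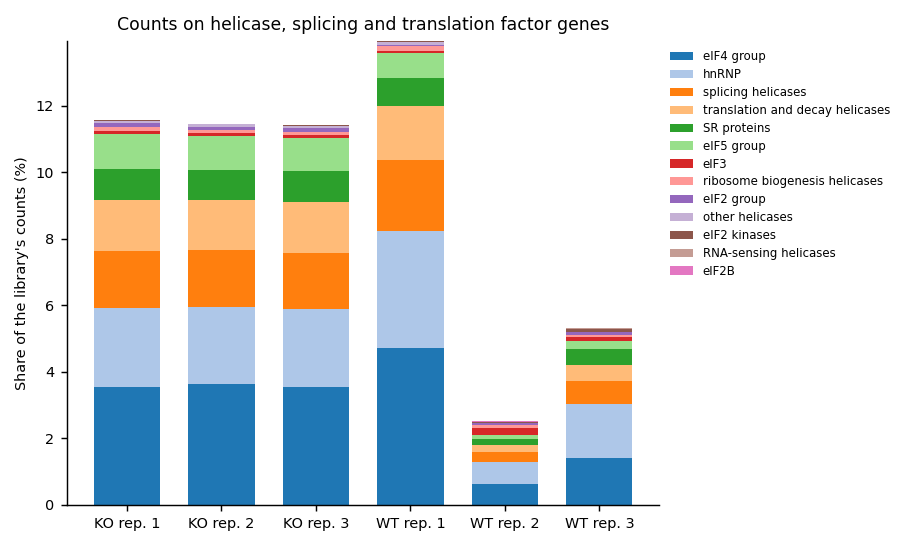
Share of each library's counts on the 128 helicase, splicing and translation factor genes, in percent, stacked by role class. The 3 KO libraries stand at 11.4% to 11.6%, between WT replicate 1 at 13.95% and WT replicates 2 and 3 at 2.51% and 5.31%.

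Between genotypes, 3 of the 93 members rose in KO libraries and 0 fell, in edgeR's quasi-likelihood test with Benjamini-Hochberg adjustment over all 5641 genes with at least 20 counts. Among all genes tested 3.08% passed, 3.01% as higher and 0.0709% as lower, so the members' share of 3.23% higher is near the background. At an unadjusted p under 0.05 there were 27 members, against 23.6% of all genes. Among those with at least 200 counts it was 22 of 42 members and 545 of all 1154 genes. These shares of all genes are to be set beside the class counts below. DESeq2 called 2 members higher (EIF2S2 and EIF5A) and 2 lower (DDX1 and HNRNPA1), beside 2.6% and 1.42% of all genes. Limma-voom called 23 higher and 0 lower, beside 11.8% and 0.195% of all genes. Its calls were 5 hnRNPs, 3 SR proteins, 2 splicing helicases, 2 helicases of translation and decay, DDX50, DDX26B, EIF2S2, EIF3J, 3 of the eIF4 group and 4 of the eIF5 group. The 3 genes that rose were EIF5A, EIF2S2 and SRSF7. Every one of these calls was lost without any 1 of the 3 KO libraries, where 0 members rose, beside 0.0374%, 0.0932% and 0.261% of all genes without KO replicates 1, 2 and 3. Without WT replicate 2, and again without WT replicate 3, 1 member rose, the cap-binding gene EIF4E2 in each case, beside 3.6% and 4.13% of all genes, and EIF5A, EIF2S2 and SRSF7 missed the threshold. Without WT replicate 1, 29 of the members rose, beside 14.5% of all genes.

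EIF5A (ENSG00000132507) encodes the translation factor that carries the modified lysine hypusine and helps ribosomes through difficult stretches and at termination. It had 544, 622 and 658 counts in KO replicates 1 to 3, against 25, 133 and 57 in WT replicates 1 to 3. As CPM, counts scaled to a common size by each library's own total, these are 2412, 2764 and 2926 in KO libraries, against 696, 352 and 421 in WT libraries. The lowest KO library was above every WT library on both scales. On TMM-scaled libraries it rose by 3.29 ± 0.61 (SE) on the log2 scale, KO minus WT (adjusted p 0.021, edgeR). It ranged over 1.39 to 3.53 in the 17 alternative settings and kept its sign in each, while the adjusted p ranged over 0.000236, against WT replicate 1 alone, to 0.795, with the KO libraries summed, and passed in 7.

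EIF5A shares its coding sequence almost whole with the retrocopy EIF5AL1, a human gene with no mouse gene of that name in the table used, so the division of reads between them is uncertain. EIF5AL1 had 250, 148 and 92 counts in KO replicates 1 to 3, against 22, 13 and 11 in WT replicates 1 to 3. The KO counts of the copy are highest where those of EIF5A are lowest. Summed, the pair had 794, 770 and 750 counts in KO libraries, against 47, 146 and 68 in WT libraries. That is 3425 ± 92.7 CPM of the library total in KO libraries and 732 ± 503 in WT libraries (SD, n = 3 each), with no overlap. EIF5A2, the second human EIF5A gene, had 7, 14 and 8 counts in KO libraries and 0, 1 and 1 in WT libraries. Its ratio of summed counts per total was 11.8 (95% exact interval 2.98 to 102, counting error only), adjusted p 0.0912 (edgeR).

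EIF2S2 (ENSG00000125977) encodes the β subunit of eIF2. It had 230, 203 and 205 counts in KO libraries, against 13, 52 and 48 in WT libraries. Of the library total these are 1020, 902 and 912 CPM in KO libraries, against 362, 138 and 354 in WT libraries, with no overlap. It rose by 2.62 ± 0.58 (SE) on the log2 scale (adjusted p 0.0348, edgeR), and by 0.74 to 2.86 in the alternatives, of which 5 passed.

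SRSF7 (ENSG00000115875) encodes an SR protein with a zinc knuckle that acts in splicing, 3′ end choice and mRNA export. It had 251, 201 and 192 counts in KO libraries, against 17, 40 and 42 in WT libraries. These are 1113, 893 and 854 CPM of the library total in KO libraries, against 473, 106 and 310 in WT libraries, again with no overlap. It rose by 2.63 ± 0.62 (SE) on the log2 scale (adjusted p 0.0451, edgeR), and by 0.89 to 3.00 in the alternatives, of which 4 passed. Set against WT replicate 1 alone, the WT library with most islet marker counts for its depth and the fewest counts in all, EIF5A, EIF2S2 and SRSF7 had log2 fold changes of 1.98, 1.41 and 1.03. The median of all 2941 genes tested in that setting was 0.86, so these values are to be read against it and not against 0. That setting was chosen after seeing the data, and its spread comes only from the 3 KO libraries, which may be technical repeats, so its calls do not measure variation between animals. In it 9 of the 65 members tested passed as higher and 13 as lower, beside 11.7% and 8.23% of all genes. With the KO libraries summed to 1, 0 passed.

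The direction of many other members depended on how the libraries were scaled. The median log2 fold change of all genes tested was −0.34 with TMM, −1.04 with DESeq2 size factors and −1.05 with library totals. The members' median was 0.34, −0.37 and −0.37 in the same order, so it changed sign with the scaling. A change of scaling moves nearly all genes together, so a gene's place relative to the median of all genes is nearly fixed over scalings. Agreement over scalings is therefore not support, here or for the classes below. Relative to the median of all genes the members stood 0.59 to 0.70 higher under each of 5 scalings, and 57 or 58 of the 93 were above that median. This difference was 0.37 without WT replicate 2, 0.33 without WT replicate 3 and 0.28 with filterByExpr, where 36 of 63 were above the median. Against WT replicate 1 alone they stood 0.97 lower (−0.97 on the log2 scale), with 19 of 65 above the median of all genes.

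The same split shows when genotypes are read for overlap. On TMM-scaled CPM, 33 members had every KO library above every WT library and 4 had every KO library below, against 22.3% and 4.61% of all genes. On library totals it was 14 above and 13 below, against 12.7% and 10% of all genes. Several of the 13 depend on 1 or 2 counts in WT replicate 1, such as EIF2AK3 with 1 and EIF2S1 with 2. A single count there is 27.9 CPM. WT replicate 1 was above all 3 KO libraries in 41 of the 93 members and below them in 35, where 24.9% of all genes were above and 51% below. That library had 0 counts in 25 of the 93 members and in 2913 of the 5641 genes tested. Depth moved with direction too. Of the 42 members with at least 200 counts, 37 had a log2 fold change above 0, with a median of 1.51, beside a median of 1.14 for the 1154 genes of that depth. Of the 51 with 20 or more but under 200 counts, 14 were above 0, with a median of −0.82, beside −0.61 for the 4487 such genes. Whether depth accounts for the difference between deep and shallow members, or for the members' place above the median of all genes, was not tested.

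**Figure D2:**
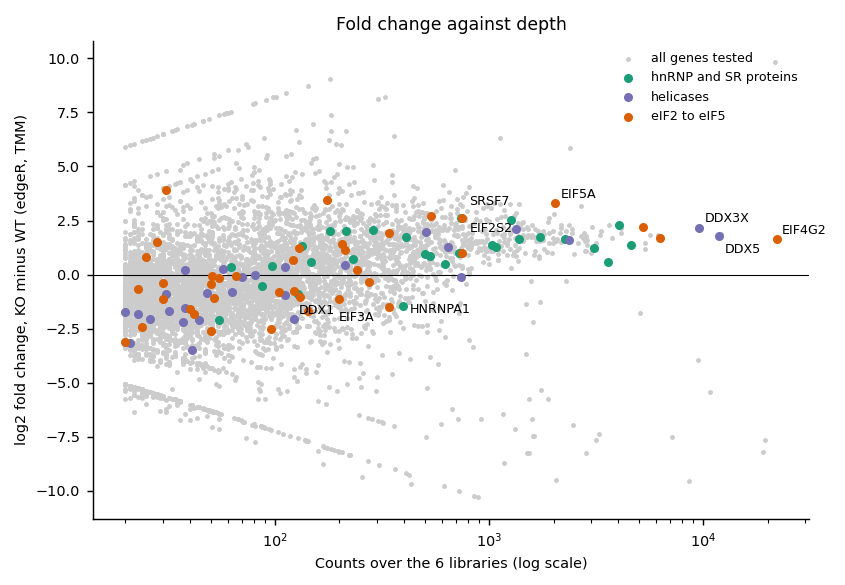
Log2 fold change, KO minus WT (edgeR, TMM), against counts summed over the 6 libraries on a log axis, for all 5641 genes tested in grey and the 93 members in colour by group. Deep members lie mostly above 0 and shallow ones mostly below, as do all genes, and EIF5A, EIF2S2 and SRSF7 are the only members past the adjusted threshold.

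The helicases of splicing were led by DDX5, a coactivator and splicing helicase also called p68. It had 3362, 3304 and 3246 counts in KO libraries, against 659, 657 and 676 in WT libraries. As CPM of the library total these are 14905, 14680 and 14433 in KO libraries, against 18354, 1739 and 4991 in WT libraries. WT replicate 1 is therefore above the KO libraries and WT replicates 2 and 3 are below them. DDX5 had a log2 fold change of 1.77 ± 0.81 (SE), adjusted p 0.211 in edgeR with TMM, and −0.30 against WT replicate 1 alone. DDX17, its close paralogue p72, went the other way on library totals, with 426, 431 and 534 CPM in KO libraries, against 808, 625 and 1211 in WT libraries. Every KO library is below every WT library there, while on TMM-scaled CPM the groups overlapped, with a log2 fold change of −0.11 and an adjusted p of 0.922 in edgeR. DHX15, which takes spliceosomes apart after splicing, had 362, 386 and 372 counts in KO libraries and 56, 114 and 48 in WT libraries, with a log2 fold change of 2.10 (adjusted p 0.103, edgeR).

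Of 10 splicing helicases tested, 0 passed in either direction by the same edgeR test, 3 reached an unadjusted p under 0.05 and 4 had a log2 fold change above 0. Several had nearly all of their counts in WT replicates 2 and 3. DHX32 had 0, 1 and 1 counts in KO libraries, against 0, 25 and 14 in WT libraries, a ratio of 0.0417 per total count (0.00488 to 0.161), and passed as lower without WT replicate 1 (adjusted p 0.038, edgeR). DDX23, a component of the U5 particle, had 1, 0 and 0 counts in KO libraries, against 0, 18 and 2 in WT libraries, a ratio of 0.0407 (0.000981 to 0.254). In 8 of the 10, WT replicate 2 held over 50% of the WT counts, beside 65.6% of all genes tested.

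Among helicases of translation and decay, DDX3X, which unwinds structured 5′ leaders, was the deepest with 2784, 2717 and 2850 counts in KO libraries, against 438, 381 and 397 in WT libraries. Its CPM of the library total was 12343, 12072 and 12672 in KO libraries, against 12199, 1008 and 2931 in WT libraries. WT replicate 1 falls within the KO range and the other WT libraries below it. DDX6, a decapping activator of processing bodies, had 664, 634 and 589 counts in KO libraries, against 135, 178 and 163 in WT libraries, and WT replicate 1 was above the KO libraries per total. DDX1, a helicase of the tRNA ligase complex, was on the other side, with 4, 8 and 7 counts in KO libraries, against 9, 72 and 22 in WT libraries. It is 17.7, 35.5 and 31.1 CPM of the library total in KO libraries, against 251, 191 and 162 in WT libraries, so the highest KO library is below the lowest WT library. Its log2 fold change was −2.05 ± 0.77 (SE) and its adjusted p 0.142 in edgeR with the 20-count minimum. With filterByExpr as the filter, with DESeq2 or without WT replicate 3, DDX1 passed as lower in KO libraries, as did 3.01%, 1.42% and 5.25% of all genes in these settings. Of 6 such helicases tested, 0 passed in edgeR, 3 had an unadjusted p under 0.05 and 3 had a log2 fold change above 0.

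Apart from DDX50, the helicases of ribosome biogenesis had under 200 counts. DDX50 had 191, 168 and 149 counts in KO libraries, against 55, 42 and 36 in WT libraries. Its paralogue DDX21, a nucleolar helicase, had 14, 4 and 9 in KO libraries, against 2, 68 and 14 in WT libraries. Of 16 listed, 10 had fewer than 20 counts, and of the 6 tested 0 passed, 0 had an unadjusted p under 0.05 in edgeR, and 1 had a log2 fold change above 0. The antiviral DDX60 and its neighbour DDX60L, whose reads may be divided between them, held 3 to 6 and 7 to 11 counts in each KO library, against 1 to 17 and 2 to 15 in each WT library. The mitochondrial DHX30 had 0, 2 and 1 counts in KO libraries, against 0, 20 and 3 in WT libraries. DDX26B had 137, 150 and 153 counts in KO libraries, against 30, 17 and 22 in WT libraries, and WT replicate 1 was above the KO libraries per total.

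**Figure D3:**
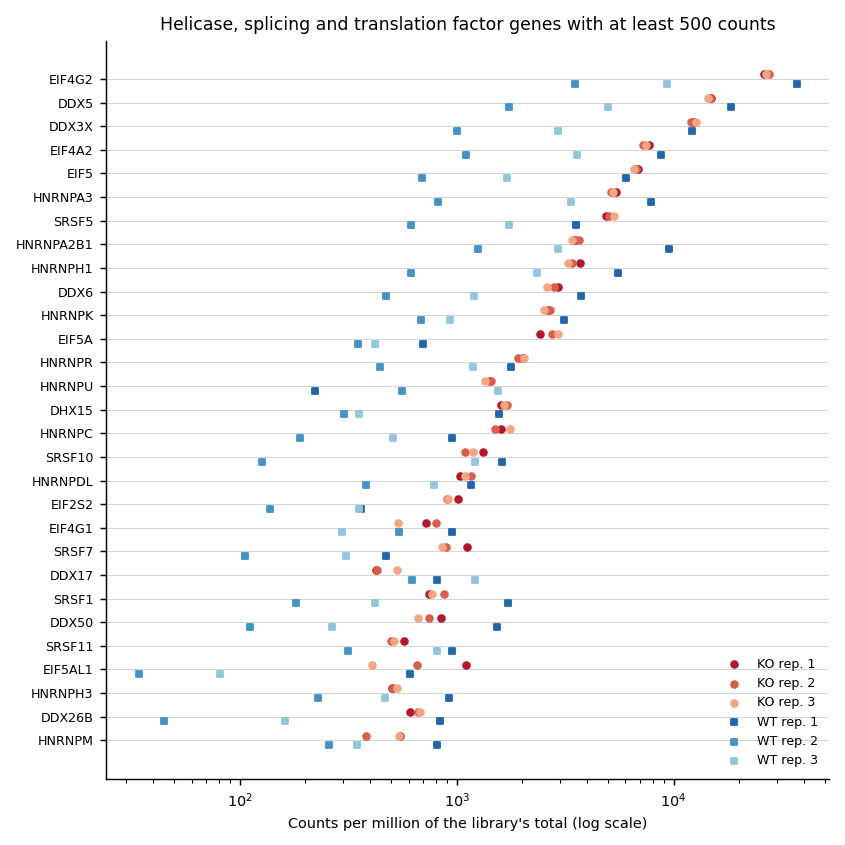
CPM of the library's own total, on a log axis, in each KO library (circles) and WT library (squares) for the 29 members with at least 500 counts. KO points cluster for most genes, WT points spread further, and EIF5A, EIF2S2, SRSF7, HNRNPR, SRSF5, EIF5, HNRNPC and DHX15 have all KO points to the right of all WT points.

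All 9 SR proteins tested had a log2 fold change above 0 with TMM, with a median of 1.33, and 1 passed. Of all genes tested 42.5% were above 0 with TMM, and of those with at least 200 counts 74.8%. Among the SR proteins, above 0 were 7 of 9 with DESeq2 size factors or library totals, 3 of 9 with the members' own total as library size, and 5 of 9 against WT replicate 1 alone. Relative to the median of all genes, which moves with the scaling, 9 of 9 were above it under each of the 5 scalings and 4 of 9 against WT replicate 1 alone. SRSF5, an SR protein known to respond to insulin in liver cells, was the deepest with 1106, 1139 and 1195 counts in KO libraries, against 127, 233 and 237 in WT libraries. As CPM of the library total it had 4903, 5061 and 5314 in KO libraries, against 3537, 617 and 1750 in WT libraries, without overlap. Its log2 fold change was 2.30 ± 0.68 (SE), adjusted p 0.0807 in edgeR. SRSF3 had 47, 58 and 61 counts in KO libraries and 4, 24 and 20 in WT libraries, and SRSF6 had 47, 43 and 39 in KO libraries and 0, 40 and 11 in WT libraries. Both had every KO library above every WT library on either scale. SRSF1, the founding member, had 168, 197 and 173 counts in KO libraries, against 62, 69 and 57 in WT libraries, and SRSF10 had 297, 246 and 268 in KO libraries, against 58, 48 and 165 in WT libraries. Both overlapped per total count, while on TMM-scaled CPM every KO library was above every WT library for SRSF10. SRSF2 had 1 count in all.

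The hnRNPs had 15 of 19 tested members with a log2 fold change above 0 with TMM, 10 of 19 with library totals and 5 of 18 against WT replicate 1 alone. In edgeR 0 of 19 passed and 8 reached an unadjusted p under 0.05. That threshold was reached by 23.6% of all genes and by 545 of the 1154 genes with at least 200 counts. Above the median of all genes were 15 of 19 with TMM and again with library totals, and 16 of 19 with the members' total, but 1 of 18 against WT replicate 1 alone. HNRNPC, which binds uridine tracts, came nearest, with 360, 338 and 397 counts in KO libraries, against 34, 72 and 69 in WT libraries. Its CPM of the library total was 1596, 1502 and 1765 in KO libraries, against 947, 191 and 509 in WT libraries, with no overlap. HNRNPC had a log2 fold change of 2.50 ± 0.63 (SE), adjusted p 0.0557 in edgeR. HNRNPU, a scaffold of the nuclear matrix, had 321, 323 and 303 counts in KO libraries, against 8, 212 and 211 in WT libraries. WT replicate 1 is far below the KO libraries there, at 223 CPM of the library total, and WT replicate 3, at 1558, is above them.

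HNRNPA2B1 and HNRNPA1, paralogues that repress nearby splice sites, stood lowest among the deep hnRNPs relative to the rest. HNRNPA2B1 had 795, 822 and 764 counts in KO libraries, against 342, 475 and 398 in WT libraries, and its log2 fold change was 0.57 with TMM, −0.37 with library totals and −1.41 against WT replicate 1 alone. HNRNPA1 had 29, 31 and 31 counts in KO libraries, against 32, 206 and 65 in WT libraries. As CPM of the library total this was 129, 138 and 138 in KO libraries, against 891, 545 and 480 in WT libraries, so every KO library is below every WT library. HNRNPA1 had a log2 fold change of −1.45 ± 0.58 (SE), adjusted p 0.163 in edgeR with the 20-count minimum. HNRNPA1 passed as lower in KO libraries with filterByExpr and with DESeq2. Its human copy HNRNPA1L2 had 2 counts in all KO libraries and 2 in all WT libraries, and HNRNPA1 has many processed copies in the human genome, so its counts are uncertain. HNRNPD, which binds AU-rich elements, had 6, 1 and 3 counts in KO libraries, against 6, 18 and 21 in WT libraries, also with every KO library below every WT library per total (log2 fold change −2.08, adjusted p 0.224, edgeR). HNRNPA3, HNRNPH1 and HNRNPK, with 1155 to 1225, 737 to 832 and 570 to 605 counts per KO library, against 282 to 458, 200 to 319 and 112 to 259 per WT library, had WT replicate 1 above the KO libraries per total.

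The starts of 4 mouse genes of these names are shown because SRSF7 and EIF2S2 had all KO libraries higher on either scale and HNRNPA1 and DDX1 all lower. Each line gives the 150 bases upstream of the annotated start, 5′ to 3′ on the gene's strand, from RefSeq on GRCm38.p6, with matches to 6 motifs in capitals. The motifs, read on both strands, were CCAAT (the CCAAT box), CCGGAA (the core of ETS sites), CACGTG (an E-box), TGACGTCA (the cAMP response element), TATAAA (the TATA box) and GCATGCGC (part of the NRF1 site). EIF5A is left out because its mouse gene has several annotated starts. The regions are chr2:154892907-154893056 on the minus strand for Eif2s2, chr17:80207306-80207455 on the minus strand for Srsf7, chr15:103240247-103240396 on the plus strand for Hnrnpa1 and chr12:13249175-13249324 on the minus strand for Ddx1.
Eif2s2: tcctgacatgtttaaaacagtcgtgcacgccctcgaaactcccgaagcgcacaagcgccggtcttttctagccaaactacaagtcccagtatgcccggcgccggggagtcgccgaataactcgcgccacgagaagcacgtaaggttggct
Srsf7: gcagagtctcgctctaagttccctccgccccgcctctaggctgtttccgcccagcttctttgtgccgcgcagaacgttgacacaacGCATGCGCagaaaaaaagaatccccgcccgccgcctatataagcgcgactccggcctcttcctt
Hnrnpa1: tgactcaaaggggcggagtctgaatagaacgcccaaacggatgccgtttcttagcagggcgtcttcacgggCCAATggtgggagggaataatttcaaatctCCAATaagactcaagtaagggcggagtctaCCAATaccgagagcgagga
Ddx1: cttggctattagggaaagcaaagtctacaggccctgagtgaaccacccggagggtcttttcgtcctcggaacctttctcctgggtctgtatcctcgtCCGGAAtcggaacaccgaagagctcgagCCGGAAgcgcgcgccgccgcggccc
Srsf7 has 1 match to GCATGCGC, at −64 from the start. Hnrnpa1 has 3 matches to CCAAT, at −79, −49 and −19, and Ddx1 has 2 matches to CCGGAA, at −53 and −25. Eif2s2 has none of the 6 motifs in this window. Over the 250 bases upstream, CCAAT was found in 38.0% of the 142 promoters of 106 member genes and 33.8% of all 32851 promoters, and CCGGAA in 35.9% of member promoters and 12.0% of all. GCATGCGC was found in 8.45% of member promoters and 2.26% of all, CACGTG in 12.7% of member promoters and 6.02% of all, TGACGTCA in 3.52% of member promoters and 1.55% of all, and TATAAA in 6.34% of member promoters and 12.4% of all. A match is a string of letters and is not evidence of a bound site.

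In the eIF2 group 5 of 6 genes were tested and 1, EIF2S2, passed. Of its partner subunits, EIF2S1, the α subunit phosphorylated in stress, had 9, 6 and 11 counts in KO libraries, against 2, 31 and 7 in WT libraries. The γ subunit gene EIF2S3 had 15, 10 and 33 counts in KO libraries, against 0, 52 and 11 in WT libraries, and its reads may be shared with the near-identical EIF2S3L. The groups overlapped for both on TMM-scaled CPM, and for EIF2S3 per library total, where EIF2S1 had 39.9, 26.7 and 48.9 CPM in KO libraries, against 55.7, 82.0 and 51.7 in WT libraries, every KO library below every WT library. The kinases that phosphorylate eIF2α had 0 of 4 past the threshold in edgeR and 0 at an unadjusted p under 0.05. EIF2AK2, the double-stranded RNA kinase PKR, had 46, 28 and 46 counts in KO libraries, against 7, 41 and 73 in WT libraries. EIF2AK3, the endoplasmic reticulum stress kinase PERK, had 4, 2 and 1 counts in KO libraries, against 1, 20 and 14 in WT libraries. EIF2AK1, the haem-regulated kinase, had 6, 6 and 7 in KO libraries, against 0, 30 and 6 in WT libraries. EIF2AK4, the amino acid sensor GCN2, had 3, 3 and 2 in KO libraries, against 1, 9 and 12 in WT libraries. Per library total every KO library was below every WT library for EIF2AK3 and EIF2AK4, and on TMM-scaled CPM for EIF2AK4 alone of the 4. For EIF2S1, EIF2AK3 and EIF2AK4 the lack of overlap depends on 2, 1 and 1 counts in WT replicate 1. There a single count is 27.9 CPM of the library total, so 1 count fewer would make each overlap. The exchange factor eIF2B could not be compared: its 5 genes had 7, 2 and 3 counts together in KO libraries, against 0, 52 and 10 in WT libraries, led by EIF2B1 and EIF2B3 with 19 counts each.

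The subunits of eIF3 were shallow outside WT replicate 2. Together 14 listed genes had 236, 207 and 191 counts in KO libraries, against 22, 823 and 178 in WT libraries, and WT replicate 2 held over 50% of WT counts in 12 of the 13 tested. For comparison that library held over 50% of WT counts in 65.6% of all genes tested. EIF3A, the largest subunit, had 31, 13 and 11 counts in KO libraries, against 0, 245 and 42 in WT libraries. EIF3J, a loosely bound subunit, was on the other side with 79, 94 and 86 counts in KO libraries, against 5, 38 and 39 in WT libraries. Every KO library was above every WT library for EIF3J, with a log2 fold change of 1.95 ± 0.60 (SE), adjusted p 0.0884 in edgeR. EIF3L had 1, 7 and 1 counts in KO libraries, against 4, 82 and 1 in WT libraries, and passed as lower without WT replicate 3 (adjusted p 0.0346, edgeR). EIF3D had 3, 0 and 1 counts in KO libraries, against 1, 45 and 0 in WT libraries. EIF3I had 1, 1 and 0 counts in KO libraries, against 0, 22 and 0 in WT libraries, so WT replicate 2 alone held its WT counts. EIF3C had 0, 0 and 1 counts in KO libraries, against 0, 17 and 2 in WT libraries, and may share reads with EIF3CL. By edgeR 0 of 13 passed and 1 had an unadjusted p under 0.05.

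The eIF4 group held the deepest gene of the set. EIF4G2, also called DAP5, lacks the part by which its relatives bind the cap-binding factor EIF4E, and it supports cap-independent initiation. It had 5907, 6178 and 5999 counts in KO libraries, against 1323, 1323 and 1268 in WT libraries. That is 22.6%, 23.9% and 23.4% of all member counts in KO libraries, against 26.4%, 13.9% and 17.6% in WT libraries. Per library total WT replicate 1 is above the KO libraries and the other WT libraries below, and the log2 fold change was 1.65 ± 0.85 (SE), adjusted p 0.260 in edgeR, or −0.44 against WT replicate 1 alone. EIF4A2, a helicase of the cap complex, had 1731, 1630 and 1679 counts in KO libraries, against 314, 419 and 485 in WT libraries, in the same arrangement. EIF4E2, a cap-binding protein that represses translation, had 51 counts in each KO library, against 1, 20 and 0 in WT libraries. Its groups did not overlap on either scale, with a log2 fold change of 3.46 ± 1.00 (SE) (adjusted p 0.0742, edgeR), and it passed in 6 of 17 alternatives. The major cap-binding factor EIF4E had 20, 9 and 16 counts in KO libraries, against 12, 37 and 29 in WT libraries, and every KO library was below every WT library per total. On TMM-scaled CPM its groups overlapped, with a log2 fold change of −0.76 (adjusted p 0.552, edgeR). Of 11 tested, 0 passed in edgeR and 2 had an unadjusted p under 0.05.

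In the eIF5 group EIF5, the activator of eIF2's GTPase, had 1540, 1502 and 1480 counts in KO libraries, against 216, 261 and 232 in WT libraries. As CPM of the library total it had 6827, 6673 and 6581 in KO libraries, against 6016, 691 and 1713 in WT libraries, with no overlap and WT replicate 1 close below. The log2 fold change was 2.21 ± 0.76 (SE), adjusted p 0.117 in edgeR. EIF5B, the subunit joining factor, had 13, 10 and 9 counts in KO libraries, against 2, 64 and 33 in WT libraries. Of 5 tested, 4 had a log2 fold change above 0 in each of 5 scalings and against WT replicate 1 alone, and 1 passed. Above the median of all genes were 4 of 5 under each of the 5 scalings, but 2 of 5 against WT replicate 1 alone. In that last setting the median was 0.27 for the group and 0.86 for all genes.

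The raw counts of the deepest members were nearly equal across WT libraries whose totals differ 10.5-fold. The ratio of the highest to the lowest WT count was 1.03 for DDX5, 1.04 for EIF4G2, 1.15 for DDX3X and 1.21 for EIF5. Among the 12 members with at least 2000 counts, 6 (50%) had a ratio of at most 1.5, beside 21 of the 63 genes of that depth in the whole table (33.3%). With at least 100 counts and 1 in every library it was 7 of 50 members (14%), beside 64 of 1543 genes (4.15%), and the median ratio was 3.21 for members and 8.0 for all. The members are part of those totals. In KO libraries, whose totals differ 1.00-fold, the median ratio was 1.21 for members and 1.33 for all genes.

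**Figure D4:**
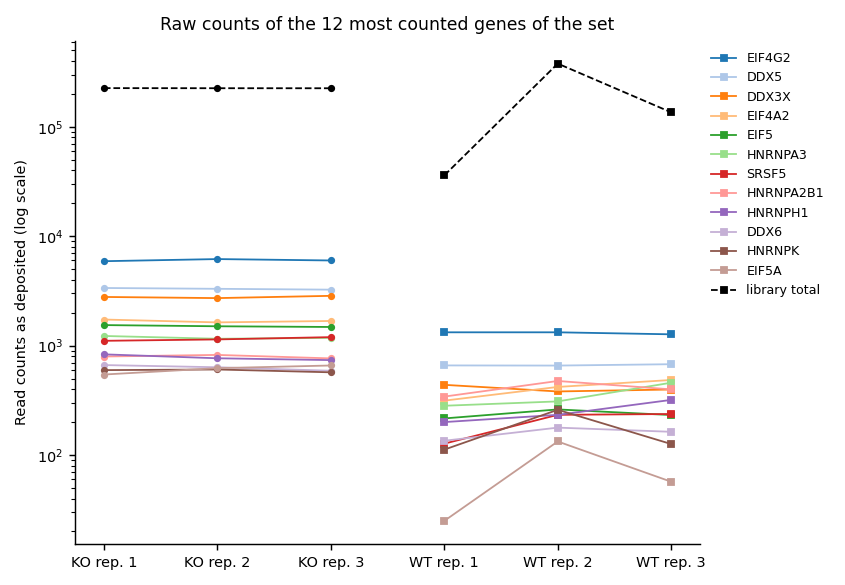
Read counts as deposited, on a log axis, for the 12 members with most counts in the 3 KO (circles) and 3 WT (squares) libraries, with the library totals as a dashed line. Lines only join the values of 1 gene. EIF4G2 and DDX5 are level across WT libraries, at 1268 to 1323 and 657 to 676, while the totals run between 35906 and 377876.

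**Figure D5:**
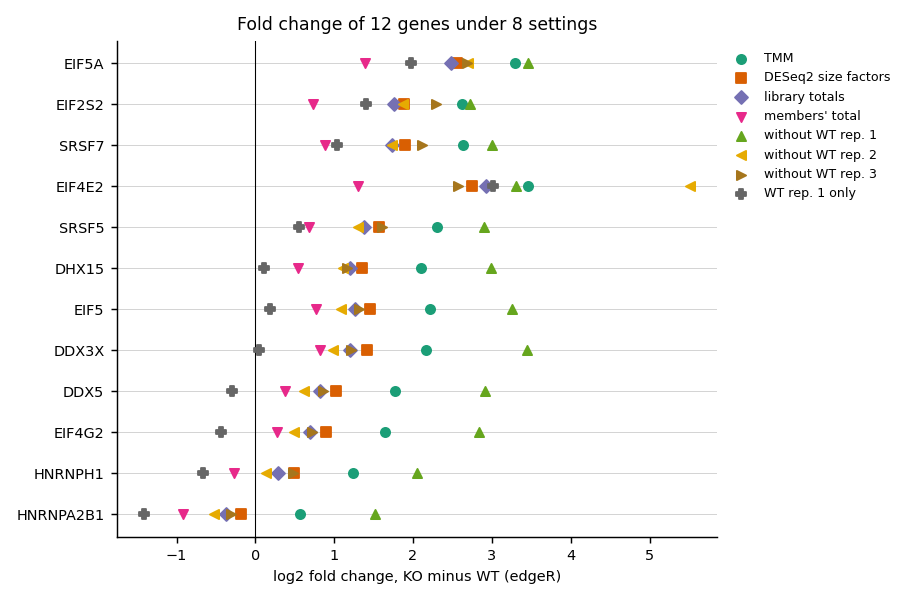
Log2 fold change, KO minus WT in edgeR, for 12 members under 8 settings of scaling and WT libraries. EIF5A, EIF2S2, SRSF7, EIF4E2, SRSF5, DHX15, EIF5 and DDX3X stay above 0 in each setting shown. The median of all genes ran from −2.44 with the members' total to 0.86 against WT replicate 1 alone, so 0 is not a common reference. Against WT replicate 1 alone DDX3X was 0.045, below that median. The agreement in sign is therefore not support. DDX5, EIF4G2, HNRNPH1 and HNRNPA2B1 have values on both sides of 0.

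Other genes of splicing and translation, on lists outside the naming rule, were tested in the same way. Of 212 on the lists 200 were in the table and 151 were tested. In edgeR 6 rose (3.97%, beside 3.01% of all genes) and 0 fell. An unadjusted p under 0.05 was reached by 41 of the 151, beside 23.6% of all genes. DESeq2 called 5 higher and 2 lower, beside 2.6% and 1.42% of all genes. Limma-voom called 28 higher and 0 lower, beside 11.8% and 0.195% of all genes. The median log2 fold change of the 151 was 0.50 with TMM, and 89 (58.9%) were above 0, beside 42.5% of all genes. In the core spliceosome 1 of 37 rose, SF1, which binds the branch point, with 190, 213 and 187 counts in KO libraries, against 10, 45 and 19 in WT libraries (log2 fold change 3.15, adjusted p 0.0244). Among other splicing regulators 2 of 55 rose. SRPK2, a kinase of SR proteins, had 172, 188 and 192 counts in KO libraries, against 6, 29 and 22 in WT libraries (3.46, adjusted p 0.0167 in edgeR). SREK1, an SR-related protein, had 419, 399 and 374 in KO libraries, against 27, 113 and 106 in WT libraries (2.41, adjusted p 0.0471).

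In the exon junction and export list 1 of 18 rose. This was CHTOP, an export adaptor, with 297, 304 and 288 counts in KO libraries, against 19, 44 and 27 in WT libraries (3.18, adjusted p 0.0318 in edgeR). In the translation list 2 of 41 rose, and both bind cytoplasmic polyadenylation elements. CPEB1 had 59, 62 and 59 counts in KO libraries, against 0 in each WT library (adjusted p 0.00905 in edgeR). Per total count this is at least 48.8-fold higher, with 3 counts allowed over the pooled WT group. Most of the pooled WT total of 549223 came from WT replicate 2, with 377876. In WT replicate 1 a single count would be 27.9 CPM, against 266 CPM in the pooled KO libraries, so that library alone sets a much lower floor. CPEB2 had 168, 117 and 118 counts in KO libraries, against 11, 43 and 13 in WT libraries (2.69, adjusted p 0.0469 in edgeR). Groups did not overlap for any of the 6. On TMM-scaled CPM 22.3% of all genes had every KO library above every WT library, as did 625 of the 1154 with at least 200 counts. These 6 were named because they passed on the same libraries, so the lack of overlap is not further support. The same holds for EIF5A, EIF2S2 and SRSF7. Of the 17 alternatives CPEB1 passed in 13, SRPK2 in 10, SF1 and CHTOP in 7 each, SREK1 in 4 and CPEB2 in 3.

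The deepest genes of these lists did not pass and resembled the deep members in their counts. EIF1, the start codon gatekeeper, had 3481, 3389 and 3400 counts in KO libraries, against 651, 573 and 613 in WT libraries. MATR3 had 1530, 1560 and 1552 in KO libraries, against 270, 365 and 388 in WT libraries, and SON had 673, 751 and 744 in KO libraries, against 172, 300 and 218 in WT libraries. SF3B1 and U2SURP of the U2 particle held 526 to 551 and 178 to 208 counts in each KO library, against 102 to 277 and 29 to 111 in each WT library. CPEB4 had 491, 466 and 514 in KO libraries, against 118, 93 and 108 in WT libraries.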

How the data were processed

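RNA sequencing of mouse islets in 6 libraries was analysed, 3 per genotype. Per the labels' protocols, RNA was extracted with TRIZOL, depleted of ribosomal RNA and made into strand-marking libraries. Tools listed in the submitters' processing notes are edgeR 3.16.5, HTSeq 0.9.1, HISAT2 2.0.4 and cutadapt 1.9.3, with the build mm10. Whether counting used strand is not stated, so overlapping genes cannot be separated. The values are whole-number read counts per gene, deposited by the authors without normalization, per the file headers. The second block of 6 per-sample columns was not used, and 1 row without an identifier was left out. Of the 128 member symbols, 119 name a mouse gene. No coordinates of the counted genes are given, because the table has none.

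Genes with at least 20 counts over the 6 libraries entered edgeR 4.0.16 (R 4.3.3), by the two-sided quasi-likelihood F test on genotype alone, with TMM scaling and Benjamini-Hochberg adjustment at 0.05. Library totals give CPM (counts scaled by the library total), where 1 count is 27.9 CPM in WT replicate 1 and 2.65 CPM in WT replicate 2. Intervals are exact Clopper-Pearson at 95% and, like the floor of 3 counts, cover counting error only. Members and lists were chosen with earlier results of these data known. Named genes are the 12 members with most counts, every member past the threshold, the 6 largest rises and falls, the 2 deepest of each role class, and for the other lists those past the threshold and the 2 deepest. A gene that the rule covers is not reported here. Genes named beyond that rule were chosen after their values were seen, as were the motifs. Alternatives were other scalings (DESeq2 size factors, library totals, no genes over 1% of counts, the members' total), filterByExpr or no filter, DESeq2 1.42.0, limma-voom (limma 3.58.1), the replicate number as a block, leaving out each library and, added after seeing the data, the KO libraries summed to 1 and WT replicate 1 as the only WT library. Of the same-numbered libraries, deviations from the group means correlated at −0.02, −0.0057 and 0.0088 over 2059 genes, so no pairing by number was seen. This cannot exclude pairing, because the deviations of KO libraries that are technical repeats would be counting error only.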

Additional observations from a re-analysis of the deposited data

How the results depend on the processing

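Members higher in KO libraries numbered 3, and 0 with DESeq2 size factors, library totals, library sizes without genes over 1% of counts, the members' total or the KO libraries summed to 1. They numbered 1 with filterByExpr, 2 with no filter or DESeq2, 23 with limma-voom, 6 with the replicate number as a block, 9 against WT replicate 1 alone, and 0 to 29 leaving out 1 library. Members lower numbered 0, and 3 with filterByExpr (DDX1, HNRNPA1 and HNRNPD), 2 with DESeq2, 13 against WT replicate 1 alone, and 0 to 2 leaving out 1 library. Other splicing and translation genes higher numbered 6, and 1 with DESeq2 size factors or library totals, 2 without genes over 1%, 0 with the members' total or KO summed, 4 with filterByExpr, 5 with no filter or DESeq2, 28 with limma-voom, 9 with the block, 17 against WT replicate 1 alone, and 0 to 36 leaving out 1 library. Those lower numbered 0, and 4 with filterByExpr, 2 with no filter or DESeq2, 15 against WT replicate 1 alone, and 0 to 4 leaving out 1 library. The share of counts on members was 4.22 points higher in KO libraries, 2.57 without EIF4G2 and DDX5, 2.15 without genes over 1%, and 1.85 to 7.57 leaving out 1 library. Of all genes, 5.04% passed as higher with filterByExpr, 1.61% with no filter, 2.6% with DESeq2, 11.8% with limma-voom and 4.52% with the block. It was 0.213% with DESeq2 size factors, 0.39% with library totals, 1.54% without genes over 1% and 0.0177% with the members' total. As lower, 3.01% passed with filterByExpr, 1.59% with no filter, 1.42% with DESeq2, 0.195% with limma-voom and 0.674% with the block. The cause of the changes between settings was not tested.

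Log2 fold changes that turned sign against WT replicate 1 alone were −0.57 for CPEB4, −0.33 for DDX26B, −0.30 for DDX5, −0.9999 for DDX50, −0.40 for DDX6, −0.40 for DDX60L, −0.23 for EIF1, −0.11 for EIF2AK2, 6.87 for EIF3A (0 counts in that WT library, so set by the prior count), −0.20 for EIF4A2, −0.44 for EIF4G2, −1.41 for HNRNPA2B1, −0.55 for HNRNPA3, −0.66 for HNRNPH1, −0.22 for HNRNPK, −0.10 for MATR3, −0.22 for SF3B1, −0.55 for SON and −0.40 for SRSF10. With the members' total they were −0.051 for DDX50, −1.75 for DDX60L, −1.77 for EIF2AK2, −1.65 for EIF2S3, −0.065 for EIF3J, −0.91 for HNRNPA2B1, −0.15 for HNRNPA3, −0.27 for HNRNPH1, −0.20 for SF3B1, −0.20 for SON, −0.33 for SRSF10 and −0.41 for U2SURP. For DDX60L, EIF2AK2 and HNRNPA2B1 they were −0.47, −0.49 and −0.18 with DESeq2 size factors, −0.55, −0.67 and −0.37 with library totals, −0.71, −0.70 and −0.40 with filterByExpr, −0.48, −0.50 and −0.18 with DESeq2, and −0.31, −0.52 and −0.52 without WT replicate 2. EIF2S3 was −0.051 with DESeq2 size factors, −0.39 with filterByExpr and −0.017 with DESeq2, and HNRNPA2B1 was −0.30 without WT replicate 3. Leaving out 1 library, HNRNPA2B1 ran over −0.52 to 1.51, EIF2AK2 over −0.52 to 0.62 and DDX60L over −0.31 to 0.39. EIF2AK1 was 0.50 without WT replicate 2, 0.089 with limma-voom, 0.29 with the block and 0.12 with KO summed. Depth limits most members: 51 of the 93 had under 200 counts over 6 libraries.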
